A study of Mus musculus with 10 samples.

Results

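Cyclic nucleotide phosphodiesterases were examined in the right ventricle (RV), left ventricle (LV) and ventricular septum of the mouse heart. The 10 genes are Pde1a, Pde1c, Pde2a, Pde3a, Pde3b, Pde4b, Pde4d, Pde5a, Pde7a and Pde8b, out of 22907 genes that could be named on the array. They were chosen by symbol, through the RefSeq accession of each probe, a rule that uses no measured value. The list of symbols was itself drawn up with earlier results of these data known. The hearts were those of C57BL/6N mice, and the labels give no genetic change and no agent for any sample. Age and treatment are not given in the sources used here. There were 4 RV, 3 LV and 3 septum samples, each a piece of whole ventricular wall that was frozen and crushed before total RNA was taken, so every level is a mixture of the cells in that piece. Each sample was hybridised with 1 dye to 1 Agilent mouse array, and the samples carry replicate numbers in their titles. The labels speak of different individuals per experiment, and what a number stands for is not stated.

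Phosphodiesterases cut the ring of cyclic AMP and cyclic GMP and so end the signals that these messengers carry. In heart muscle, cyclic AMP made after beta-adrenergic stimulation activates protein kinase A, which speeds and strengthens the beat, while cyclic GMP made by guanylyl cyclases activates protein kinase G. The families differ in what they cut and in what regulates them: the PDE1 enzymes are activated by calcium and calmodulin, PDE2 is stimulated by cyclic GMP, PDE3 is inhibited by it, PDE4, PDE7 and PDE8 are specific for cyclic AMP, and PDE5 is specific for cyclic GMP.

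A level is given here as the log2 signal of a probe relative to the 75th percentile of its array, so that a level of 0 is the signal of that percentile. Levels of different genes come from different probes and are not set against each other. Of 23 probes for the 10 genes, 18 passed the filter on dim probes, which asked for a signal well above background on all arrays of 1 region or more, and were tested. A gene is described by its probe of highest mean signal, and for all 10 genes this probe was well above background on all 10 arrays. The arrays had 53.7% to 64.0% of their spots well above background and no saturated spot. There were 2 slides with 1 scan date each, of which slide 1 held arrays 1 and 2 of each region, and slide 2 held RV arrays 3 and 4, LV array 3 and septum array 3. All 10 cardiomyocyte markers were well above background on all arrays. Septum array 1 stood apart in the atrial markers, with a mean of 2.67 log2 units above their average over the arrays, against -1.63 to 0.96 on the other arrays. Septum array 2 was at 0.96 and septum array 3 at -0.55. All 5 atrial markers tested had higher means in the septum than in the other regions, and 0 were called without a block. Their median difference was 1.91 for septum minus LV and -1.80 for RV minus septum. The number of arrays limits the precision of every difference below, and p-values measure the spread between these arrays.

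The means of the 10 phosphodiesterases differed by at most 1.29-fold between any 2 regions. Pde3b was the gene farthest below the LV in the RV, with a difference of -0.37 ± 0.14 (log2, standard error), which is 1.29-fold. Pde1a was the gene farthest above the LV, with a difference of 0.26 ± 0.12. In the limma fit with 1 mean per region, 0 of 10 genes passed an adjusted p of 0.05 for RV against LV, where 3.86% of 30234 probes passed. For RV against septum 0 of 10 passed, against 2.08% of probes, and for septum against LV 0 of 10 passed, against 0% of probes. Without adjustment, 1 gene had p under 0.05 for RV against LV (Pde3b), 2 for RV against septum (Pde1c and Pde3b) and 0 for septum against LV. Among all 30234 probes, 5992, 4249 and 862 had such a p, in the same order of pairs. The methods' analysis of variance with Tukey's correction gave 0 of 10 in each pair after adjustment. The F test over the 3 regions also called 0 of 10 genes, against 2.78% of probes.

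**Figure D1:**
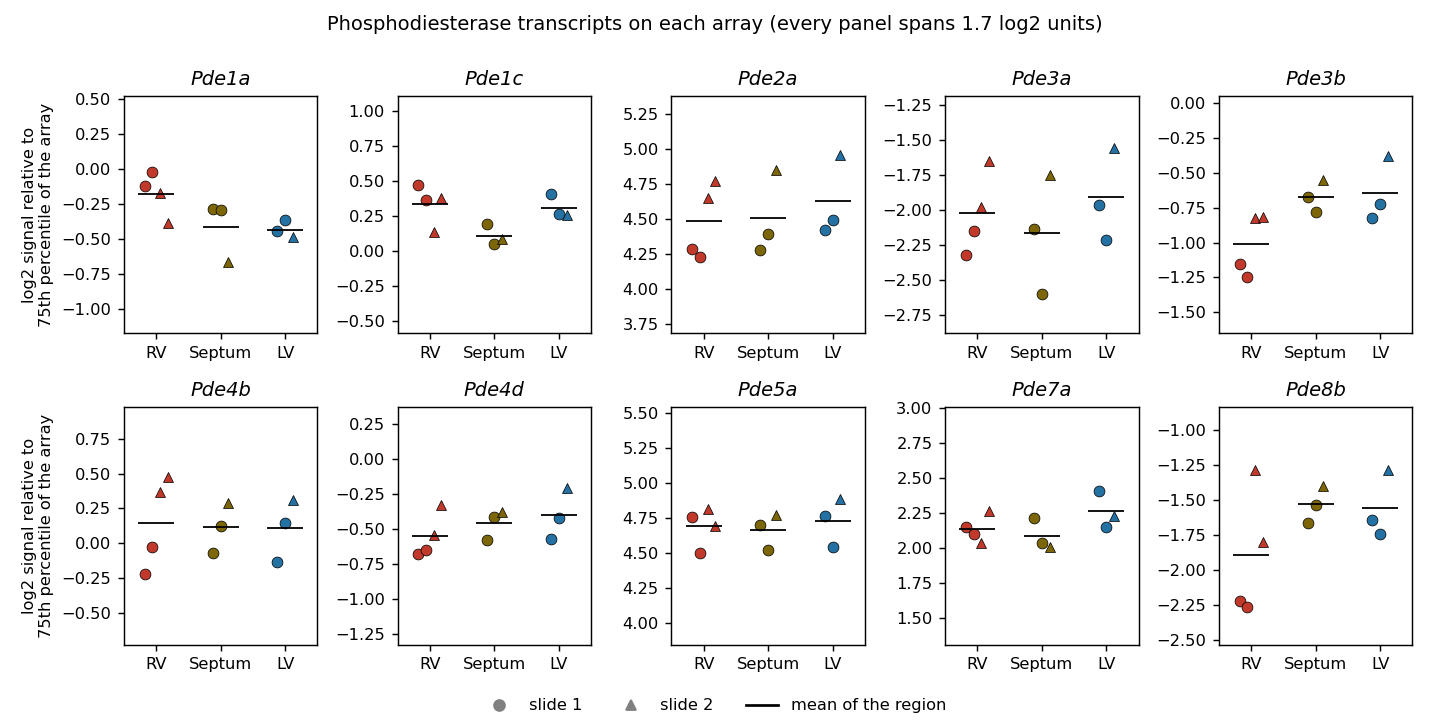
Level of each phosphodiesterase on each array (log2 signal relative to the 75th percentile of the array) by region, with 1 point per array, circles for slide 1, triangles for slide 2 and a line at the mean of the region. Each panel has its own position on the axis but the same span; for Pde2a, Pde3a, Pde4b and Pde8b the slide 2 arrays lie mostly above the slide 1 arrays of the same region.

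For several of these genes the slides differed by more than the regions did. Fitted beside region, slide 2 was higher than slide 1 by 0.51 for Pde3a, 0.48 for Pde2a, 0.47 for Pde8b, 0.40 for Pde4b and 0.32 for Pde3b on the log2 scale, and lower by 0.22 for Pde1a. Each slide held all 3 regions, so slide was also entered as a block. With this block 3 of 10 genes passed for RV against LV, where 17.6% of all probes passed. These were Pde1a, which was higher in the RV, and Pde2a and Pde3b, which were lower. For RV against septum 1 of 10 passed (Pde3b, lower in the RV), against 8.74% of probes, and for septum against LV 0 of 10 passed, against 0.0463% of probes. These shares are at the adjusted threshold and count probes. Counted by gene, 1290 of 14641 named genes were called higher and 1829 lower for RV against LV with the slide block. For RV against septum 782 were called higher and 836 lower. At an unadjusted p under 0.05, the slide block fit had 5 genes for RV against LV, 4 for RV against septum and 1 for septum against LV. The share of all probes at that threshold was not counted for the block fits, so these numbers are descriptions. Blocking on the replicate number instead, the same 3 genes passed for RV against LV (14.9% of probes) and the same gene for RV against septum (7.12% of probes). RV array 4 is the only array of its number, so it adds nothing to the differences in that fit. For septum against LV the replicate block called 0 of 10 genes and 0% of probes at the adjusted threshold. At an unadjusted p under 0.05 it had 5, 5 and 2 genes for RV against LV, RV against septum and septum against LV, again without a share of all probes. Across the 10 genes the median difference between RV and LV was -0.12 without a block, and across all 14641 named genes tested it was -0.05.

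**Figure D2:**
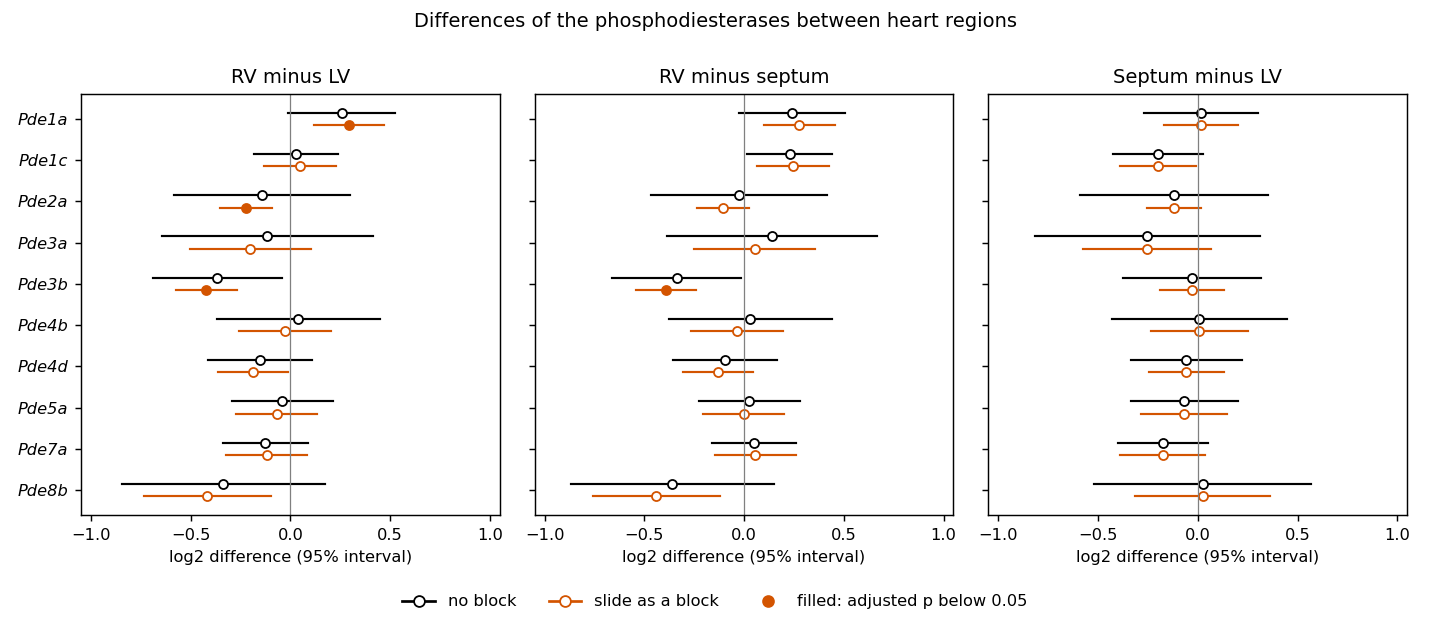
Log2 difference between regions for each phosphodiesterase, with 95% intervals from limma, without a block (black) and with slide as a block (orange); filled points have an adjusted p below 0.05. The block narrows most intervals, and the 4 filled points are Pde1a, Pde2a and Pde3b in RV minus LV and Pde3b in RV minus septum.

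The PDE3 enzymes cut cyclic AMP and are inhibited by cyclic GMP. Pde3b is best known from fat cells, where insulin acts through it to hold back lipolysis, and it is also made in heart muscle. The RV levels of Pde3b were -1.15, -1.25, -0.82 and -0.82 on arrays 1 to 4. The LV levels were -0.83, -0.73 and -0.38, and the septum levels were -0.68, -0.78 and -0.56. All 4 RV arrays lay below all 3 septum arrays, a separation found for 13.7% of probes, while RV arrays 3 and 4 lay just above the lowest LV array. Within each replicate number the RV array was below the LV array, with differences of -0.33, -0.52 and -0.44 for numbers 1, 2 and 3. It was also below the septum array, with differences of -0.47, -0.47 and -0.27.

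Without a block, the difference of Pde3b between RV and LV had an adjusted p of 0.198 in limma. The slide block gave a difference of -0.42 ± 0.07 and an adjusted p of 0.00565, and the replicate block an adjusted p of 0.0206. Against the septum, the difference was -0.34 ± 0.14 without a block (adjusted p = 0.333) and -0.39 ± 0.07 with slide as a block (adjusted p = 0.0103). The replicate block gave an adjusted p of 0.0336 there. RV minus LV was -0.42 on slide 1 taken alone and -0.44 on slide 2, and RV minus septum was -0.47 and -0.27. In the fit with the slide block, both differences stayed past the threshold when any 1 of the 10 arrays was left out. The adjusted p then had a highest value of 0.0434 for RV against LV and 0.0407 for RV against septum. Without the filter on dim probes the difference from the septum had an adjusted p of 0.0702. Septum minus LV was -0.03 for Pde3b.

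Markers of other cells moved between the same regions. Of 11 adipocyte markers tested, 6 were called higher in the RV than in the LV without a block (3.86% of probes) and 3 higher than in the septum (2.08% of probes). The 5 markers not called for RV against LV had negative differences in both pairs, down to -0.24 against the LV and -0.16 against the septum, and none of them was called. The mean level of the list relative to the average over the arrays was 0.84 to 1.18 in the RV, -1.64 to -0.89 in the LV and -0.45 to 0.44 in the septum. Adipoq, the fat cell hormone adiponectin, was well above background on 4 RV arrays, 0 LV arrays and 3 septum arrays, and Ucp1 of brown fat on 0 of 10. Of 8 mesothelial markers, 7 were called higher in the RV than in the septum without a block, and against the LV 0 were called without a block and 7 with it. Their mean levels, on the same scale, were 0.54 to 2.01 in the RV, -0.67 to 0.12 in the LV and -2.85 to -0.83 in the septum. Of the 8, 2 were well above background on all arrays. The rest could pass the filter on dim probes through the RV alone. Their calls and mean levels thus rest partly on signals near background and are descriptions. All 8 macrophage markers had higher means in the RV than in the LV and the septum, with 0 called without a block in either pair, and 3 and 4 called with the slide block (17.6% and 8.74% of probes). The cardiomyocyte list lay at -0.14 to -0.02 in the RV, 0.02 to 0.18 in the LV and -0.04 to 0.15 in the septum, with 5 of 10 markers called lower in the RV than in the LV with the slide block, which called 17.6% of all probes in either direction, and 0 without it. The part of these cells in the Pde3b result was not tested, and in whole tissue fewer cells of a type and less RNA per cell cannot be told apart.

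Pde3a encodes the other PDE3 enzyme, which in heart muscle acts near the calcium pump of the sarcoplasmic reticulum. Its levels were -2.32, -2.15, -1.97 and -1.65 in the RV, -1.96, -2.21 and -1.55 in the LV and -2.14, -2.60 and -1.75 in the septum. The 3 regions overlapped on these arrays. RV minus LV was -0.11 ± 0.24 (adjusted p = 0.838) and RV minus septum 0.14 ± 0.24 (adjusted p = 0.860). The spread between arrays was wide for this gene, and the 95% interval of septum minus LV, -0.82 to 0.31, left room for a 1.76-fold difference.

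**Figure D3:**
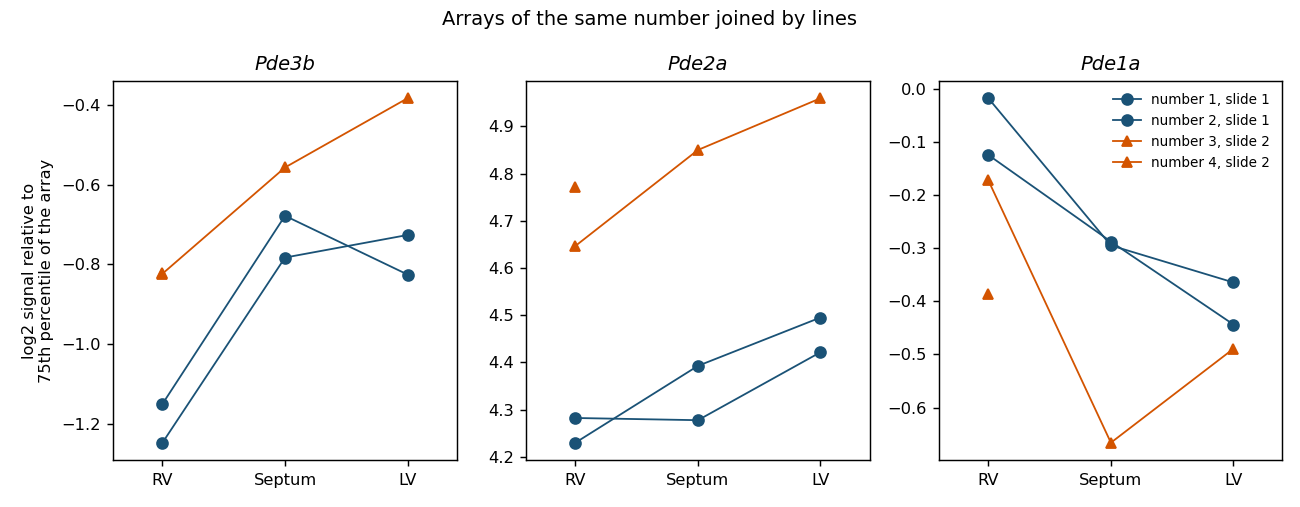
Levels of Pde3b, Pde2a and Pde1a (log2 signal relative to the 75th percentile of the array) by region, with arrays of the same replicate number joined by a line; each panel has its own vertical scale. In all 3 joined sets Pde3b and Pde2a are lower and Pde1a is higher in the RV than in the LV; the RV array of number 4 has no partner, and for Pde3b its point lies on that of RV array 3.

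Pde2a encodes the enzyme through which cyclic GMP speeds the loss of cyclic AMP. Its RV levels were 4.28, 4.23, 4.65 and 4.77. The LV levels were 4.42, 4.50 and 4.96, and the septum levels were 4.28, 4.39 and 4.85. In each region the slide 2 arrays were the highest, and the regions overlapped when the slides were pooled. The RV array was below the LV array of the same number, with differences of -0.14, -0.27 and -0.31. Without a block the RV minus LV difference was -0.14 ± 0.20 (limma adjusted p = 0.750). It was -0.22 ± 0.06 with slide as a block (adjusted p = 0.0303), and the replicate block gave an adjusted p of 0.0462. The slides taken one at a time gave -0.20 and -0.25. Against the septum the RV difference was -0.02 without a block and -0.11 with slide as a block (adjusted p = 0.281).

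The call of Pde2a with the slide block rested on most of the arrays. Leaving out RV array 1 gave an adjusted p of 0.0553, and leaving out LV array 1 one of 0.0551. It was 0.0749 without RV array 2, 0.0881 without LV array 2, 0.129 without LV array 3 and 0.0524 without septum array 3. The difference ranged from -0.24 to -0.20 over the 10 fits with an array left out. The call also ended under quantile normalisation (-0.16, adjusted p = 0.0941), with the 75th percentile taken over detected probes (-0.16, adjusted p = 0.0754), with normexp background correction (-0.20, adjusted p = 0.0706) and without the filter on dim probes (adjusted p = 0.143).

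The PDE1 enzymes link calcium to the loss of cyclic nucleotides, and Pde1a and Pde1c encode enzymes found in smooth muscle and in heart muscle. Pde1a had RV levels of -0.12, -0.02, -0.17 and -0.39. Its LV levels were -0.44, -0.36 and -0.49, and its septum levels were -0.29, -0.29 and -0.67. RV arrays 1 to 3 lay above every LV and septum array, and RV array 4 lay within both ranges. The RV array was above the LV array of the same number by 0.32, 0.35 and 0.32, and above the septum array by 0.16, 0.28 and 0.49. Without a block RV minus LV was 0.26 ± 0.12 (limma adjusted p = 0.271). It was 0.29 ± 0.08 with slide as a block (adjusted p = 0.0347). The replicate block, to which RV array 4 adds nothing, gave an adjusted p of 0.0429. The slides taken one at a time gave 0.33 and 0.21. RV minus septum was 0.24 ± 0.12 without a block (adjusted p = 0.410) and 0.28 ± 0.08 with slide as a block (adjusted p = 0.0634), and it passed with that block under scaling by the median (adjusted p = 0.0479), the percentile over detected probes (0.0445) and normexp (0.0351). A second, dimmer probe of Pde1a had RV levels of -0.92, -0.58, -0.88 and -0.84, all above its 3 LV levels of -1.11, -1.03 and -1.60 and its 3 septum levels of -1.02, -1.31 and -1.34. Such a separation from the LV was found for 19.1% of probes. That probe's RV minus LV difference was 0.44 without a block and 0.48 with slide as a block (adjusted p = 0.0281), and with the replicate block its adjusted p was 0.0783.

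The call of Pde1a, like that of Pde2a, was lost when single arrays were left out of the fit with the slide block. The adjusted p was 0.0599 without RV array 1, 0.0888 without RV array 2, 0.0567 without RV array 3, 0.101 without LV array 1, 0.0877 without LV array 2 and 0.060 without LV array 3. It was 0.142 without the filter on dim probes. The difference stayed between 0.25 and 0.37 in all 10 fits with an array left out. Fibroblast markers were higher in the RV than in the LV on 10 of 10 genes, as were 5773 of 14641 named genes. Without a block 3 of the 10 were called (3.86% of probes), and with slide as a block 7 were (17.6% of probes). The list had a mean of 0.04 to 0.52 in the RV and -0.38 to -0.18 in the LV. The smooth muscle and pericyte list overlapped between RV (-0.17 to 0.75) and LV (-0.31 to -0.08), as did the endothelial list (-0.01 to 0.20 and -0.14 to 0.14). The smooth muscle and pericyte markers had a median RV minus LV difference of -0.01, from -0.31 to 2.30, and 5 of 10 were positive. For the endothelial markers the median was 0.03, from -0.20 to 1.32, and 6 of 10 were positive. With slide as a block, 3 of 10 smooth muscle and pericyte markers were called higher in the RV and 1 lower, and 0 without it. Of 10 endothelial markers, 3 were called higher and 2 lower with that block, and 1 higher without it. The part of these cells in the Pde1a result was not tested.

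Pde1c was lowest in the septum. Its levels were 0.47, 0.36, 0.13 and 0.38 in the RV, 0.41, 0.26 and 0.26 in the LV and 0.19, 0.05 and 0.08 in the septum. All 3 septum arrays lay below all 3 LV arrays, a separation found for 7% of probes, while RV array 3 lay within the septum range. RV minus septum was 0.23 ± 0.09 without a block (limma adjusted p = 0.317) and 0.25 ± 0.08 with slide as a block (adjusted p = 0.0943), and 0.30 with that block when RV array 3 was left out (adjusted p = 0.0388). Septum minus LV was -0.20 with an adjusted p of 1, and RV and LV were 0.03 apart (adjusted p = 0.898). The other probes of Pde1c did not place the septum below the LV. Of these, 1 had a septum minus LV difference of 0.12 and the other a mean level of -0.17 in both. For RV minus LV without a block, the former gave 0.28 (limma adjusted p = 0.291) and the latter 0.15 (adjusted p = 0.339).

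Pde8b encodes a cyclic AMP phosphodiesterase of high affinity that most inhibitors of the superfamily do not reach. Its RV levels were -2.22, -2.27, -1.28 and -1.80, its LV levels -1.64, -1.74 and -1.28, and its septum levels -1.66, -1.53 and -1.40. RV arrays 1 and 2 were the 2 lowest of the 10 arrays, RV array 4 was the next lowest, and RV array 3 lay with the highest LV array. Without a block the RV minus LV difference was -0.34 ± 0.23 (limma adjusted p = 0.467) and the RV minus septum difference -0.36 ± 0.23 (adjusted p = 0.539). Entering slide as a block gave -0.42 ± 0.14 (adjusted p = 0.0750) and -0.44 ± 0.14 (adjusted p = 0.0918). Within slide 1 alone, with 2 arrays of each region, both passed, at -0.55 (adjusted p = 0.0450) and -0.64 (adjusted p = 0.0370). In that fit 821 of 30234 probes passed for RV against LV and 478 for RV against septum. Within slide 2 alone they were -0.26 and -0.14, with adjusted p of 0.593 and 0.805. The slide block without RV array 3 gave -0.54 against the LV (adjusted p = 0.00514) and -0.56 against the septum (adjusted p = 0.00561). That block also gave a call for RV against LV under scaling by the median (-0.46, adjusted p = 0.0474) and normexp (-0.31, adjusted p = 0.0441). Without a block the 95% interval of RV minus LV reached farther from 0 for Pde8b than for the other 9 genes, from -0.85 to 0.17.

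The PDE4 enzymes carry much of the cyclic AMP breakdown in the rodent heart, where they sit near beta-adrenergic receptors and calcium channels, and rolipram is their classical inhibitor. Pde4b had levels of -0.22, -0.03, 0.37 and 0.47 in the RV, -0.13, 0.15 and 0.31 in the LV and -0.07, 0.12 and 0.29 in the septum. The regions overlapped, and in each of them the slide 2 arrays were the highest. RV minus LV was 0.04 ± 0.18 without a block (adjusted p = 0.930) and -0.03 with slide as a block (adjusted p = 0.880), so that its direction was not settled. Another, dim probe of Pde4b had all 4 RV arrays above all 3 LV arrays, as 19.1% of probes had the 2 groups apart, with a difference of 0.28 that did not pass with slide as a block (adjusted p = 0.0801). Pde4d had levels of -0.68, -0.65, -0.55 and -0.33 in the RV, -0.57, -0.42 and -0.21 in the LV and -0.58, -0.42 and -0.38 in the septum. In each replicate number its RV array was the lowest of the 3, but the groups overlapped. RV minus LV was -0.15 ± 0.12 without a block (adjusted p = 0.535), -0.19 with slide as a block (adjusted p = 0.130), and had an adjusted p of 0.0604 with the replicate block. Another probe of Pde4d went the opposite way, with an RV minus LV difference of 0.14 (adjusted p = 0.698). Pde4d has many transcripts from separate starts, and the files do not say which of them each probe reads.

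Pde5a encodes the cyclic GMP enzyme that sildenafil inhibits, and in the normal heart it is found largely in vascular smooth muscle. Its levels were 4.76, 4.50, 4.81 and 4.69 in the RV, 4.76, 4.54 and 4.88 in the LV and 4.70, 4.52 and 4.77 in the septum. The 3 regions overlapped on almost their whole range. RV minus LV was -0.04 with a 95% interval of -0.29 to 0.21, and RV minus septum 0.03 with an interval of -0.23 to 0.28. Pde7a encodes a cyclic AMP enzyme of the family that lymphocytes also use. Its levels were 2.15, 2.10, 2.04 and 2.27 in the RV, 2.41, 2.15 and 2.23 in the LV and 2.21, 2.04 and 2.01 in the septum. RV minus LV was -0.12 ± 0.09 (adjusted p = 0.525) and septum minus LV -0.18 ± 0.10 (adjusted p = 1), and the arrays of the regions overlapped.

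The intervals show what size of difference these arrays leave open. Without a block, the 95% interval lay within 1.5-fold in both directions for 7 of 10 genes in RV minus LV, 7 in RV minus septum and 8 in septum minus LV. The slide block brought this to 9, 9 and 10 genes. In both fits all 10 genes lay within 2-fold in all 3 pairs, and the outermost limit was 1.83-fold, for Pde8b between RV and septum.

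The other genes of the pathway comprised 79 genes in 6 groups, of which 65 could be tested. Of the 10 other phosphodiesterases tested, 0 were called in any pair without a block. Of these, Pde7b was called higher in the RV than in the LV with slide as a block. It was well above background on 4 RV arrays, 1 LV array and 3 septum arrays, so the size of that difference rests on LV signals near background and is not given. Adenylyl and guanylyl cyclases, which make the messengers, had 0 of 6 genes called in each group without a block. With the block Gucy1a1, a subunit of the nitric oxide receptor, was higher in the RV than in the LV by 0.39, just past the threshold. Of the 6 adenylyl cyclases, 1 was called lower in the RV than in the LV with the block, which called 17.6% of all probes.

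Among the effectors, 3 of 16 were called for RV against LV without a block, against 3.86% of all probes. Prkar2b, a regulatory subunit of protein kinase A that is abundant in fat and brain, had levels of -0.045, -0.15, -0.45 and -0.19 in the RV, -1.45, -1.06 and -1.66 in the LV and -0.79, -1.13 and -1.23 in the septum. It was higher in the RV than in the LV by 1.18 (limma adjusted p = 0.00664) and than in the septum by 0.84 (adjusted p = 0.0366), with no overlap in either pair, a separation found for 19.1% and 13.7% of probes. Prkar1b, another regulatory subunit, was higher in the RV than in the LV by 0.65 (adjusted p = 0.0488). Bves, a cyclic AMP binding protein of the Popeye family in heart muscle, was lower by -0.49 (adjusted p = 0.0418). When slide was a block, Popdc3 of the same family was lower in the RV than in the LV by -0.47 (adjusted p = 0.0106) and than in the septum by -0.45 (adjusted p = 0.0178). Prkar1a, the main regulatory subunit of type I kinase, was lower than in the LV by -0.37 (adjusted p = 0.0421). Bves was then also lower than in the septum, by -0.39 (adjusted p = 0.0157).

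Of 14 kinase inhibitors and anchors, Akap6, which holds protein kinase A and Pde4d at the nuclear envelope of heart muscle cells, was lower in the RV than in the LV by -0.31 without a block (limma adjusted p = 0.0346). With slide as a block it was also lower than in the septum by -0.21 (adjusted p = 0.0470), and Pde4dip, an anchor that binds Pde4d, was lower than in the LV by -0.41 (adjusted p = 0.0298). Of 13 kinase substrates and lipolysis genes, Mybpc3, a sarcomere protein that protein kinase A phosphorylates, was lower in the RV than in the LV by -0.47 (adjusted p = 0.00891) and than in the septum by -0.40 (adjusted p = 0.0247). Plin1, the lipid droplet protein of fat cells, is itself one of the adipocyte markers and its calls count there too. It was well above background on 4 RV, 0 LV and 1 septum array. It was called higher in the RV than in the LV, at least 4.34-fold, but passed the filter on dim probes through the RV alone. Such a call is partly set by the filter, so no p-value is given. Plin1 was also called higher than in the septum, but 1 of 3 septum arrays measured it, so no size is given. In all, 6 of 65 pathway genes were called for RV against LV, 3 in each direction, where 3.86% of probes were called, and 3 for RV against septum, where 2.08% were. The slide block gave 16 for RV against LV, 5 higher and 11 lower, beside 17.6% of probes, and 6 for RV against septum, beside 8.74% of probes. These counts are descriptions of the list, and each of those for the RV includes Plin1. Of 14641 named genes, 460 were called higher and 269 lower for RV against LV, and 246 and 149 for RV against septum. With the slide block these were 1290 and 1829, and 782 and 836. For septum against LV 0 of 65 were called in either fit.

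**Figure D4:**
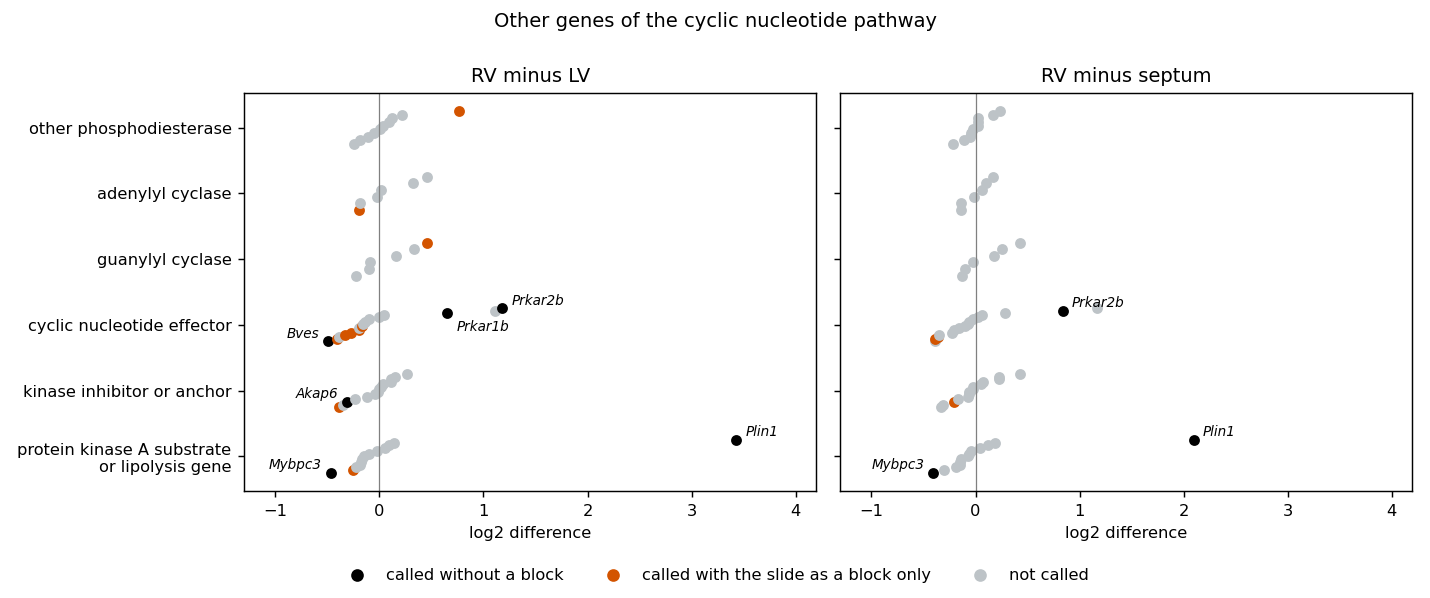
Log2 difference without a block for the 65 other genes of the cyclic nucleotide pathway, by group, with 1 point per gene, black where called without a block, orange where called with slide as a block but not without it, and grey otherwise. Plin1 and Prkar2b lie farthest to the right among the called genes, and the values of Plin1 in both panels, and of Pde7b (the orange point of the other phosphodiesterases in RV minus LV), rest on signals near background in the LV or septum.

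For the 3 genes called with a block, the genes of most similar pattern were sought over the 10 arrays after the slide effect had been removed, among 13629 genes. The arrays share region and hybridisation, so these values are descriptions. Nearest to Pde3b were Kpna1 (Pearson r = 0.987), 4833419F23Rik (0.987) and Spag9 (0.976). Nearest to Pde2a were Golga2 (0.989), Gys1 (0.98) and Entpd4 (0.979). Nearest to Pde1a were Ncoa7 (0.98), Emcn (0.970) and Ifitm7 (0.965), and Emcn is one of the endothelial markers. With the slide effect kept, the value fell to 0.29 for 4833419F23Rik and to 0.74 for Emcn, and lay between 0.82 and 0.93 for the others.

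Cyclic AMP can act on genes through CREB, a factor that binds the cyclic AMP response element, so the start regions of the 10 genes were searched for the core of that element. RefSeq start regions on build GRCm38.p6, from 250 bases before to 50 after a start, were at hand for 7 of the 10 genes, 23 regions in all. The core TGACG, on either strand, was found in 4 of the 23 regions (17.4%) and in 20.8% of 32851 start regions of all genes. The full palindrome TGACGTCA, which holds the core on both strands, was in 0 of 23 regions and in 1.79% of all. The 4 matches are shown because they lie in Pde1a and Pde2a, called with a block, and in Pde4b and Pde8b, which were not called in those fits. Capitals mark the core, read 5′ to 3′ on the strand of the gene, and CGTCA is the core on the other strand.
Pde1a, chr2:80039052-80039080, minus strand, the match starting 166 bases before the start: gtaacttcagccCGTCAttcctcagtaat
Pde2a, chr7:101450522-101450550, plus strand, the match starting 14 bases after the start: ggggcgcaggagCGTCAcggctgctgcaa
Pde4b, chr4:102421509-102421537, plus strand, the match starting 34 bases before the start: gatttggctgcaCGTCAattttctcatct
Pde8b, chr13:95223001-95223024, minus strand, the match starting 38 bases after the start: ggaaagttggggTGACGcgcgctg
A match of these letters is not a measured binding site. Which start is used in each region of the heart was not measured, and the share among the 10 genes was close to that of all start regions.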

How the data were processed

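Total RNA of RV, LV and septum was labelled with Cy3 and hybridised to SurePrint G3 mouse arrays. The authors made the deposited intensity values with Feature Extraction (version 11.5.1.1), which subtracts background and flags spots, with no scaling between arrays. A second deposited file holds the authors' log2 values from GeneSpring. After a constant was taken off each array, these were within 0.05 of the values below for 100% of probes, and they served as an alternative.

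From the deposited intensity, outlier spots (56 to 128 per array) and control spots were dropped, log2 was taken, spots of 1 probe were averaged and each array's 75th percentile (a signal of 514 to 706) was subtracted. Of 56605 probes, 30234 (53.4%) were kept, being well above background on all arrays of 1 region or more. Probes were named by RefSeq accession without version through a GRCm38.p6 gene table (32989 probes). The array design uses another build, so no probe coordinates are given.

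The regions were compared with limma 3.58.1 in R 4.3.3 (lmFit and eBayes, 1 mean per region, no covariate, two-sided, Benjamini-Hochberg over all probes kept, threshold 0.05). The study's methods name analysis of variance with Tukey's correction, which was run as an alternative. The fit was tested on simulated data. Alternatives were slide or replicate number as a block, each slide alone, other scalings, normexp, no filter and leaving out each array. Deviations from the region means correlated at 0.360 to 0.645 between arrays of the same number in different regions. All 9 pairs were above 0.1. The number was entered as a block only in an alternative fit, while the fit without a block takes the arrays as independent. Arrays of the same number always shared a slide. Arrays of different number on the same slide correlated at 0.090 to 0.577, so the number and the slide cannot be fully told apart. On slide 2, RV array 4 correlated more closely with LV array 3 (0.571) and septum array 3 (0.577) than RV array 3 did (0.426 and 0.444). These correlations therefore do not establish that a number pairs the arrays.

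Pathway genes named are those called without a block and, of those called with slide as a block only, the 5 of largest difference per pair. For each phosphodiesterase called in either fit the 3 genes of highest correlation are named. The phosphodiesterases, pathway lists and marker lists were chosen with earlier results of these data known. The remaining marker lists (brown adipocyte, mesothelium, macrophage, lymphocyte, blood, and nerve and glia) had medians for RV minus LV of -0.03, 1.84, 0.31, 0.20, -0.17 and 0.17.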

Additional observations from a re-analysis of the deposited data

How the results depend on the processing

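The direction of every phosphodiesterase called with a block held under all alternatives run for RV against LV, except Pde2a, which reached 0.024 without LV array 3 and without a block. Across all probes and without a block, 1167 were called for RV against LV. The count was 5331 with slide as a block, 4512 with the replicate block, 331 on slide 2 alone, 684 with scaling by the median, 269 without the filter, 775 by analysis of variance and 390 to 980 with an array left out. For RV against septum the count was 628, and 2643, 2154 and 171 in the first 3 of these fits, 112 without the filter and 118 to 542 with an array left out. For septum against LV it was 0 (862 probes at an unadjusted p under 0.05), 14 with slide as a block, 1 on slide 2 alone, 2 by quantile normalisation, 3 with normexp, 167 by analysis of variance and 0 to 3 with an array left out. The F test called 842 probes, 3826 with slide as a block, 2671 with the replicate block, 354 and 281 on slides 1 and 2 alone, 178 without the filter and 298 to 706 with an array left out. Of the calls for RV against LV, 59.7% were higher in the RV, 41.1% with slide as a block, and 75.9% when the percentile was taken over detected probes. For RV against septum it was 58.0%, and 73.0% after scaling by the median.

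Phosphodiesterases called for RV against LV numbered 0, 3 with either block and 1 on slide 1 alone (Pde8b), where 821 of 30234 probes were called. For RV against septum they numbered 0, 1 with either block and 1 on slide 1 alone, where 478 probes were called. The F test called 1 with either block (Pde3b). With slide as a block, the 3 for RV against LV became 1 without the filter (Pde3b) and 1 to 3 with an array left out. The 1 for RV against septum became 2 by the median, 2 by detected probes and 2 with normexp (Pde1a and Pde3b), 0 without the filter and 1 to 3 with an array left out (3 without RV array 3, with Pde1c and Pde8b besides Pde3b). Pathway genes called for RV against LV numbered 6, 16 with slide as a block, 12 with the replicate block, 3 and 2 on slides 1 and 2 alone, 3 by quantile, 2 by the median, 2 without the filter and 3 to 5 with an array left out. For RV against septum they numbered 3, 6 with slide as a block, 7 with the replicate block, 1 on either slide alone, 0 without the filter and 0 to 3 with an array left out.

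Small differences changed sign, and none of these was called. For septum minus LV, Pde1a was -0.18 on slide 2 and -0.049 by the median, Pde3b 0.045 on slide 1, Pde4b -0.021 on slide 2, -0.057 by the median and -0.00081 with normexp, and Pde8b -0.11 on slide 2, -0.0063 by quantile and -0.041 by the median. For RV minus septum, Pde2a was 0.0097 by quantile, 0.019 by the median and 0.0092 by detected probes, Pde3a -0.063 on slide 2, Pde5a -0.0021 with slide as a block and -0.019 on slide 2, and Pde7a -0.0017 on slide 1. Pde4b was -0.026, -0.069 and -0.13 for RV minus LV with slide as a block, with the replicate block and on slide 1, and -0.035, -0.077 and -0.15 for RV minus septum. Pde5a for RV minus LV was 0.027 by quantile and 0.014 by detected probes. A second probe gave 0.14, 0.13 and 0.012 for Pde4d in RV minus LV, RV minus septum and septum minus LV, 0.12 for Pde1c in septum minus LV, -0.072 and -0.20 for Pde4b in RV minus LV and RV minus septum, and -0.14 for Pde7a in RV minus septum. With an array left out, RV minus LV ranged from -0.016 to 0.097 for Pde1c, -0.24 to 0.024 for Pde2a, -0.27 to 0.063 for Pde3a, -0.080 to 0.16 for Pde4b and -0.14 to 0.035 for Pde5a. RV minus septum ranged from -0.14 to 0.15 for Pde2a, -0.082 to 0.35 for Pde3a, -0.077 to 0.15 for Pde4b and -0.046 to 0.090 for Pde5a. Septum minus LV ranged from -0.048 to 0.14 for Pde1a, -0.29 to 0.048 for Pde2a, -0.12 to 0.10 for Pde3b, -0.11 to 0.11 for Pde4b, -0.14 to 0.038 for Pde4d, -0.16 to 0.0099 for Pde5a and -0.070 to 0.16 for Pde8b.

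The cause of these changes was not tested. The files hold no mean signal, so normexp was run on the median signal with an offset of 50, as an alternative added after seeing the data, and the version on the mean signal was not run. The scalings and left-out arrays with slide as a block were also added then.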
